A study of Mus musculus with 16 samples.

Results

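The HoxA genes analysed were Hoxa2, Hoxa3, Hoxa4, Hoxa5, Hoxa6, Hoxa7, Hoxa9, Hoxa10 and Hoxa11, 9 of 26180 genes with a curated RefSeq transcript. They were taken by name, together with every deposited peak in a region of 130001 bp on chromosome 6 (GRCm38), which ran from 24.8 kb below to 105 kb above the Hoxa2 start in chromosome coordinates and held 332 of the 107863 peaks of the series. All 9 genes lie on the minus strand, so that the cluster reads from Hoxa11 to Hoxa2 in transcription order. H3K4me3, H3K27me3 and Suz12 were mapped by chromatin immunoprecipitation followed by sequencing (ChIP-seq) in mouse R1 embryonic stem cells (ESCs) kept in 2 conditions. LIF-ESCs received 100 units per ml of the cytokine LIF, whereas Myc-ESCs received 50 nM 4-hydroxytamoxifen (OHT) and no LIF, and both were grown without feeder cells and with vitamin C. OHT switches on a fusion of Myc and the oestrogen receptor (MycER). The study used clonal R1 lines with such a fusion, among them a clone with the substitution T58A in Myc, and the labels name neither the clone nor the form used for these libraries, nor whether LIF-ESCs carried the fusion. In its other assays the paper describes MycER cells kept in LIF as well as in OHT. The 16 libraries comprise 2 for each culture and antibody and 4 inputs, but only 1 peak list stands behind each culture and antibody. No list exists per library and the depth is unknown, so that none of the differences below could be set against replicate error and no test was made.

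Hox genes encode homeodomain transcription factors that specify position along the body axis, and their order on the chromosome follows the order of their expression domains. In ESCs most of them are silent and bivalent, which means that the activating mark H3K4me3 and the repressive mark H3K27me3 occur at the same gene. H3K27me3 is laid down by Polycomb repressive complex 2 (PRC2), of which Suz12 is a core subunit, and H3K4me3 in mammals is found mostly at CpG-rich start sites.

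Pluripotency and differentiation genes were looked at first, and the presence of an H3K4me3 peak did not tell these 2 sets apart. All 7 pluripotency genes examined (Pou5f1, Nanog, Sox2, Esrrb, Klf4, Zfp42 and Tfcp2l1) had H3K4me3 at the start site in both cultures, as did 62.2% and 63.3% of all genes, and all 6 differentiation genes (Gata6, Gata4, Sox17, T, Cdx2 and Pax6) had H3K4me3 together with Suz12 in both. The scores of these H3K4me3 peaks did differ in LIF-ESCs, where the highest was 3100 at each pluripotency gene and from 81.05 to 430.43 at the differentiation genes. In Myc-ESCs the ranges met, with 721.83 (Esrrb) to 3100 against 158.83 (T) to 746.98 (Pax6). Of the pluripotency genes, Suz12 marked 1 in LIF-ESCs (Esrrb) and 2 in Myc-ESCs (Esrrb and Klf4), and H3K27me3 marked 0 and 2 (Esrrb and Tfcp2l1). Over all genes the shares were 12.1% and 14.6% for Suz12 and 3.82% and 10.7% for H3K27me3. The lists held 32469 and 30345 H3K4me3 peaks, 3120 and 16717 H3K27me3 peaks, and 11305 and 13907 Suz12 peaks in LIF-ESCs and Myc-ESCs respectively. The length of the H3K27me3 lists thus differed by 5.36 times over the whole genome, and the part that depth took in this was not tested.

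The starts of Hoxa2 and Hoxa7 were the only ones of the 10 start sites of these genes that lay inside an H3K27me3 peak in Myc-ESCs, and Hoxa2 was the only one that did in LIF-ESCs. The Hoxa2 start was the base at the edge of that LIF-ESC peak, whose score of 57.36 was close to the lowest of the list, 50.01. The sequences are from the RefSeq promoter table of GRCm38.p6, which runs from 250 bases before to 50 bases after a start and reads 5′ to 3′ on the minus strand. Capitals mark the bases inside the LIF-ESC H3K27me3 peak for Hoxa2 (chr6:52164782-52165081), 182 of 300 bases, all 300 of which were inside the Myc-ESC peak. For Hoxa7 (chr6:52218524-52218823) capitals mark the 222 bases inside Myc-ESC H3K27me3 peaks.
Hoxa2: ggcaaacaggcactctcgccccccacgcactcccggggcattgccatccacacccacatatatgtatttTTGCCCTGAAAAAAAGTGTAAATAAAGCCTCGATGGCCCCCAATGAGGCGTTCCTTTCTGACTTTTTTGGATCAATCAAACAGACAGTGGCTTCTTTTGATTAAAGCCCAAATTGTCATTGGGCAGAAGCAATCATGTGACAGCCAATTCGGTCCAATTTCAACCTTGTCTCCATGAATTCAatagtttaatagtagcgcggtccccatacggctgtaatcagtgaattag
Hoxa7: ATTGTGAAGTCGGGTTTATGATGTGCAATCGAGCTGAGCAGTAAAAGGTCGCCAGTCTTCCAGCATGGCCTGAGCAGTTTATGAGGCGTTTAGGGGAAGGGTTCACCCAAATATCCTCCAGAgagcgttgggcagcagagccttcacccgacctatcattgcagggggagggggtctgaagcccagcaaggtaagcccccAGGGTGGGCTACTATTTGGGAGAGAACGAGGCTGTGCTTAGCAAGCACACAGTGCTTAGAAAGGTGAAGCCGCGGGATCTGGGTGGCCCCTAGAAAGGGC
Each of these promoters held 9 CpG dinucleotides. By contrast, Hoxa5 and Hoxa6 had the most CpG-rich of the 9 matched promoters, with 29 and 26, and no base of either lay in an H3K27me3 peak in either culture. They are shown with each CpG in capitals, Hoxa5 at chr6:52204538-52204837 and Hoxa6 at chr6:52208623-52208922.
Hoxa5: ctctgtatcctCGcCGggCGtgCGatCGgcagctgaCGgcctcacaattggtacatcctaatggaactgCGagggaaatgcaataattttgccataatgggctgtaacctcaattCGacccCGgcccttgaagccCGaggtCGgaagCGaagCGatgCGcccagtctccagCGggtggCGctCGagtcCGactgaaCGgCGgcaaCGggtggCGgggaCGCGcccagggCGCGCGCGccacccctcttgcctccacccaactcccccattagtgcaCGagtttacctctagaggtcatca
Hoxa6: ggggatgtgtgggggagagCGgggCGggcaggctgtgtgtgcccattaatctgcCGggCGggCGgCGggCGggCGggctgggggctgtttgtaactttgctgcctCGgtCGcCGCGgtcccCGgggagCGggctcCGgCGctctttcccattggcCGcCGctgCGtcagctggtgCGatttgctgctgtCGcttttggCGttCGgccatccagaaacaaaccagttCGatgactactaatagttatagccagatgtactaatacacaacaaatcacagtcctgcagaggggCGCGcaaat

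The table held 9 promoters for 8 of the genes, with Hoxa10 entered for both of its starts, and Hoxa4 was not matched. Their CpG count ranged from 4 at Hoxa9 to 29 at Hoxa5, with a median of 15.0 against 7.0 over the 32851 promoters of the table. Hoxa3 held 20, Hoxa11 held 15, and the starts of Hoxa10 held 21 (52234939) and 12 (52240854). In Myc-ESCs, H3K27me3 peaks covered 45 promoter bases at Hoxa3, 46 at Hoxa9 and 51 at the Hoxa10 start with 12 CpGs, and none at Hoxa5, Hoxa6, Hoxa11 or the Hoxa10 start with 21. The 2 promoters with the largest covered stretch were therefore among the 3 with the fewest CpGs, and Hoxa9, with the fewest, was covered over 46 bases. The letters CACGTG, the canonical E-box of Myc and its partner Max (a palindrome, so that both strands read alike), occurred in 0 of the 9 promoters and in 7.15% of all promoters of this length.

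H3K27me3 peaks covered 4.21% of the HoxA region in LIF-ESCs and 33.6% in Myc-ESCs, 7.97 times as many bases. Over the genome the same ratio was 5.52, from 0.0253% to 0.14% of the bases. The region held 30 H3K27me3 peaks in LIF-ESCs, all of them short, with a median of 174.5 bp and a longest peak of 331 bp. In Myc-ESCs it held 162, with a median of 201.5 bp and a longest peak of 1417 bp, and 65 of the 161 gaps between them were under 100 bp. The Myc-ESC mark was thus listed as strings of narrow peaks rather than as long domains. The deposited score of a peak is the MACS value, 10 times the negative log10 of its p-value, which grows with depth and enrichment. It reached 100 in 1 of the 30 LIF-ESC peaks (3.33%, beside 10.9% of the whole list) and in 58 of the 162 Myc-ESC peaks (35.8%, beside 20.2%). The strongest Myc-ESC peak had a score of 753.89 and lay at chr6:52166370-52167376, upstream of Hoxa2, whereas the strongest LIF-ESC peak had a score of 131.21 and lay outside the 9 genes.

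**Figure D1:**
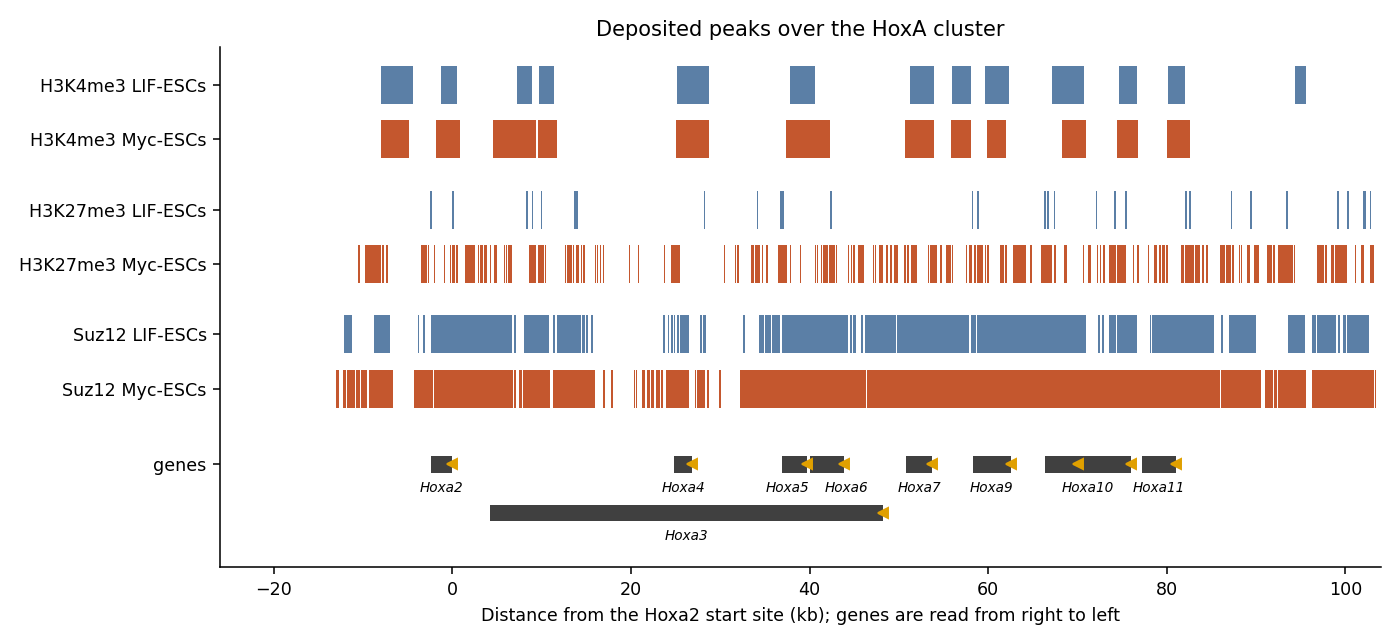
Peaks of the 6 deposited lists over the HoxA cluster, drawn to scale against the distance from the Hoxa2 start site in kb. Blue boxes are LIF-ESC peaks, orange boxes Myc-ESC peaks, dark bars the 9 genes and yellow arrowheads their start sites; the 30 narrow H3K27me3 peaks of LIF-ESCs stand against 162 in Myc-ESCs, and the 66 Suz12 peaks against 48 longer ones.

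With both H3K27me3 lists limited to their 3120 highest-scoring peaks, the HoxA region still held 54 Myc-ESC peaks that covered 19.0% of it, 4.51 times the LIF-ESC bases, beside a genome ratio of 2.17. All 9 genes kept an H3K27me3 peak in Myc-ESCs under this limit, against 5 in LIF-ESCs, while the number of all genes so marked was 1000 in LIF-ESCs and 925 in Myc-ESCs.

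Suz12 was already spread over most of the cluster in LIF-ESCs. Its peaks covered 59.6% of the region in LIF-ESCs and 77.3% in Myc-ESCs, a ratio of 1.3 beside 1.51 over the genome. The number of Suz12 peaks was 66 in LIF-ESCs and 48 in Myc-ESCs, since several peaks of LIF-ESCs lay under 1 long peak of Myc-ESCs. The longest Suz12 peak in LIF-ESCs was 10815 bp and lay at chr6:52224927-52235741, over the Hoxa9 start and 1 start of Hoxa10. The longest in Myc-ESCs was 30955 bp and lay at chr6:52211213-52242167. It was the longest of all 13907 Suz12 peaks of Myc-ESCs and ran over 5 start sites, those of Hoxa3, Hoxa7, Hoxa9 and both of Hoxa10. In LIF-ESCs the same stretch held 15 Suz12 peaks, which covered 89.1% of it. A further peak of 12048 bp held the starts of Hoxa5 and Hoxa6, 1 of 8878 bp held that of Hoxa2 and 1 of 8325 bp held that of Hoxa11. Of the 10 start sites, only that of Hoxa4 lay outside the Suz12 peaks of Myc-ESCs.

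**Figure D2:**
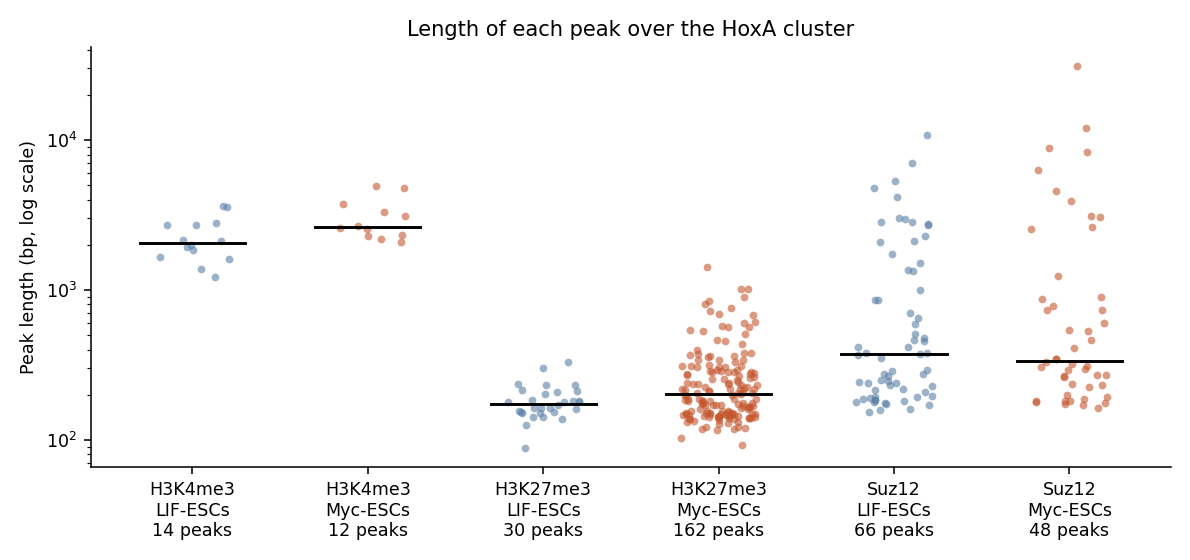
Length in bp, on a log axis, of each peak of the 6 lists over the HoxA cluster; each point is 1 peak, spread sideways for legibility, and black lines are medians. The longest Suz12 peak had 10815 bp in LIF-ESCs against 30955 bp in Myc-ESCs, and H3K27me3 peaks were the shortest in both cultures, with medians of 174.5 and 201.5 bp.

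H3K4me3 differed less in extent between the cultures. Its 14 LIF-ESC peaks covered 24.1% of the region and its 12 Myc-ESC peaks 28.2%, a ratio of 1.17 beside 0.977 over the genome. The strongest H3K4me3 peak of the region was at Hoxa5 in both cultures, with a score of 1209.9 and a length of 2795 bp in LIF-ESCs and a score of 1409.21 and a length of 4953 bp in Myc-ESCs. A stretch of 13307 bp inside the Hoxa3 gene, between its downstream part and Hoxa4, had no H3K4me3 in either culture. Suz12 peaks covered 31.0% of this stretch in LIF-ESCs against 56.5% in Myc-ESCs, and H3K27me3 peaks 2.74% against 23.4%.

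Peaks of the cultures were shared when they overlapped by at least 1 bp. Of the H3K4me3 peaks, 13 of 14 LIF-ESC peaks (92.9%, beside 80.9% of the whole list) and 12 of 12 Myc-ESC peaks (100.0%, beside 85.8%) were shared. Of the Suz12 peaks, 65 of 66 in LIF-ESCs (98.5%, beside 78.2%) and 24 of 48 in Myc-ESCs (50.0%, beside 45.1%) were shared, and 99.0% of the LIF-ESC Suz12 bases were still in a peak in Myc-ESCs. For H3K27me3 23 of 30 LIF-ESC peaks (76.7%, beside 51.6%) and 23 of 162 Myc-ESC peaks (14.2%, beside 8.95%) were shared. Of the Myc-ESC H3K27me3 bases, 40232 (92.2%) had no H3K27me3 peak in LIF-ESCs. Suz12 peaks of LIF-ESCs already lay over 75.5% of these bases, while LIF-ESC Suz12 covered 59.6% of the region, and Suz12 peaks of Myc-ESCs lay over 95.2% of them, while Myc-ESC Suz12 covered 77.3%.

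At the start sites, a gene counted as marked if at least 1 bp of a peak fell within 2500 bp of any of its curated starts. H3K27me3 marked 5 of the 9 genes in LIF-ESCs and all 9 in Myc-ESCs, whereas it marked 3.82% and 10.7% of all genes. Hoxa3, Hoxa5, Hoxa7 and Hoxa9 were marked in Myc-ESCs only, as were 7.65% of all genes. The 5 genes marked in both cultures all had more covered bases in Myc-ESCs, as did 89.0% of all genes marked in both. Suz12 marked 9 of 9 in both cultures, beside 12.1% and 14.6% of all genes, so that no member belonged to the 3.81% of genes with Suz12 in Myc-ESCs only. Covered bases of Suz12 were higher in Myc-ESCs at 8 of the 9 and equal at Hoxa11, beside 81.4% of genes that were higher. H3K4me3 marked 7 of the genes in LIF-ESCs against 9 in Myc-ESCs, beside 62.2% and 63.3% of all genes. Hoxa3 and Hoxa6 were marked in Myc-ESCs only, as were 2.35% of all genes. This difference rests on the window, since H3K4me3 marked 7 genes in each culture with 1000 bp on each side and 9 in each with 5000 bp. Of the 7 marked in both, 5 had more covered bases in Myc-ESCs, beside 65.0% of genes. All 3 marks were found in the windows of 4 of the 9 genes in LIF-ESCs (Hoxa2, Hoxa4, Hoxa10 and Hoxa11) and within the windows of all 9 in Myc-ESCs, beside 2.77% and 8.86% of all genes. At Hoxa3 and Hoxa6 the H3K4me3 in these windows belonged to peaks over the starts of Hoxa7 and Hoxa5.

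**Figure D3:**
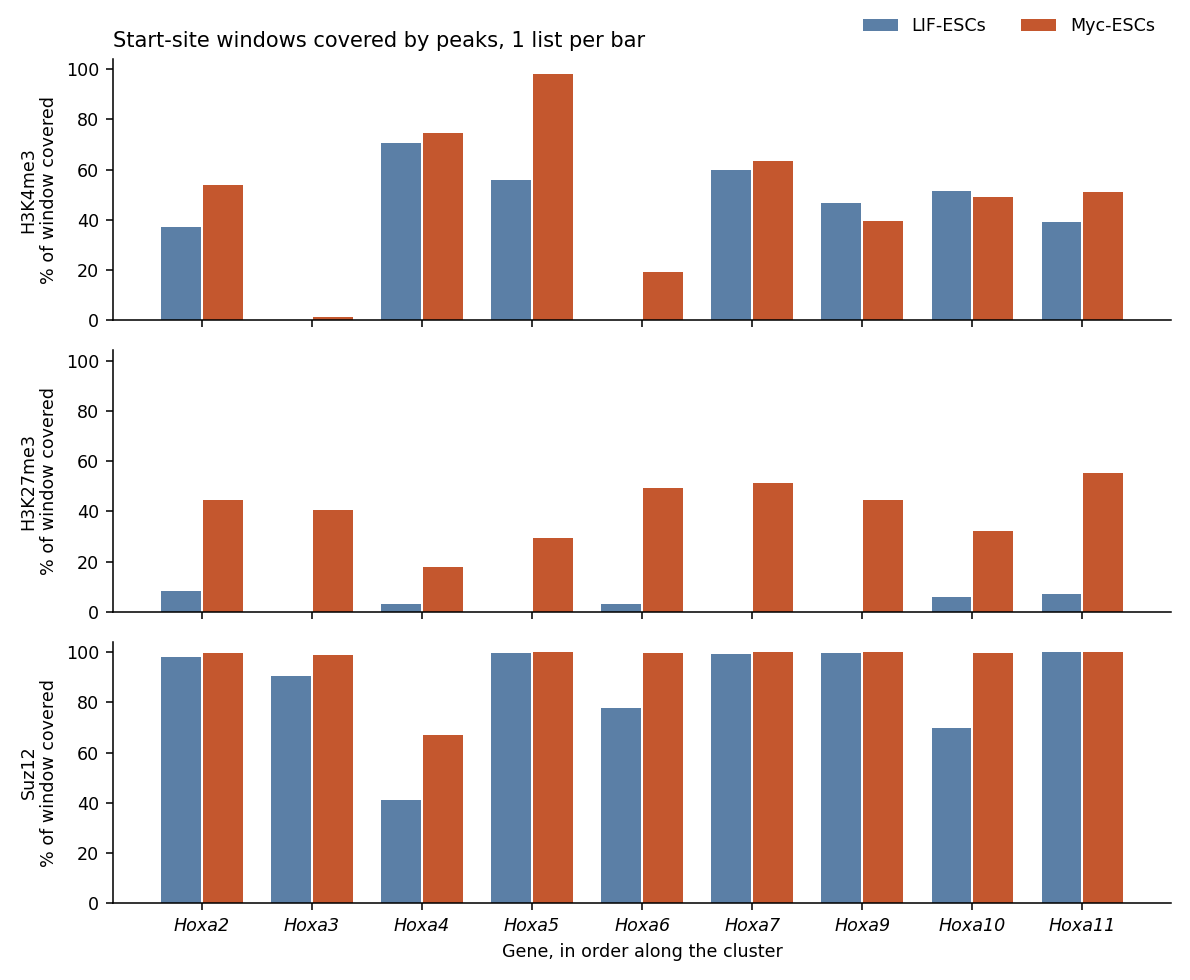
Percent of the window within 2500 bp of the start sites of each gene that was covered by peaks of H3K4me3, H3K27me3 and Suz12, with LIF-ESCs in blue and Myc-ESCs in orange. Each bar is 1 deposited list and has no error; H3K27me3 bars were higher in Myc-ESCs at all 9 genes and lowest there at Hoxa4, at 17.8%.

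Hoxa2, which patterns the hindbrain and the second branchial arch, had H3K27me3 over 420 bp of its 5001-bp window in LIF-ESCs, compared with 2226 bp in Myc-ESCs. Its H3K4me3 peak was 1848 bp with a score of 88.88 in LIF-ESCs and 2689 bp with a score of 240.24 in Myc-ESCs. Within the lists, 17.9% of LIF-ESC and 40.7% of Myc-ESC H3K4me3 peaks scored lower than these, and the lists differ in length. Suz12 covered 98.1% and 99.4% of the window.

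Hoxa3, needed for the thymus and parathyroid, is the one gene whose curated start (52213067) lies far from most of its exons, between the Hoxa6 and Hoxa7 starts. Its window held no H3K27me3 in LIF-ESCs and 2036 bp in 10 peaks in Myc-ESCs, the nearest of them 5 bp from the start. H3K4me3 overlapped the window over 74 bp in Myc-ESCs only. That overlap came from the edge of the Hoxa7 peak, 2427 bp from the Hoxa3 start, so that the call rests on the width of the window. The Hoxa3 gene also spans Hoxa4, Hoxa5 and Hoxa6, so that the H3K4me3 peaks over Hoxa4 and Hoxa5 lie in its introns. Apart from those, the H3K4me3 peaks within Hoxa3 were near its downstream end, at chr6:52172106-52173718 and chr6:52174550-52176202 in LIF-ESCs and chr6:52169383-52174136 and chr6:52174443-52176535 in Myc-ESCs. Suz12 covered 90.6% of the start-site window in LIF-ESCs, in 7 peaks, and 98.8% in Myc-ESCs, in 2.

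Hoxa4, which acts in the cervical vertebrae, stood lowest of the 9 for both Polycomb measures in Myc-ESCs. Suz12 covered 41.3% of its window in LIF-ESCs against 67.0% in Myc-ESCs, and H3K27me3 163 bp against 891 bp. It was also the only gene whose highest Suz12 score stayed under the upper limit of about 3100 that many strong peaks share, at 772.29 and 2371.29. H3K4me3 covered 70.5% and 74.6% of the window, and its highest score was 589.13 in LIF-ESCs and 244.05 in Myc-ESCs.

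Hoxa5, which is needed for the lung and respiratory tract, had no H3K27me3 in its window in LIF-ESCs and 1473 bp in 9 peaks in Myc-ESCs. The nearest LIF-ESC H3K27me3 peak lay 2536 bp from the start, just outside the window. H3K4me3 covered 2795 bp of the window in LIF-ESCs against 4900 bp in Myc-ESCs, a difference of 2105 bp. With 1000 bp on each side the difference was 209 bp, so that most of the added bases lay farther from the start. Hoxa6, whose start lies upstream of Hoxa5, had H3K27me3 over 164 bp and 2467 bp. H3K4me3 reached its window in Myc-ESCs only, over 969 bp, and this was the extended Hoxa5 peak, which ended 1532 bp short of the Hoxa6 start. No start-site H3K4me3 peak was therefore listed for Hoxa6 in either culture, although its promoter held 26 CpGs. Suz12 covered 99.7% and 100.0% of the Hoxa5 window and 77.8% and 99.4% of the Hoxa6 window.

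Hoxa7, expressed in the trunk, had its nearest H3K27me3 peak 4419 bp from the start in LIF-ESCs, outside the window, and 2567 bp of the mark in 7 peaks in Myc-ESCs, 1 of them over the start. The stretch chr6:52207287-52222991, 15705 bp over the starts of Hoxa6, Hoxa3 and Hoxa7, was the longest between neighbouring LIF-ESC H3K27me3 peaks of the region. In Myc-ESCs it held 26 H3K27me3 peaks that covered 42.4% of it. Suz12 covered 90.4% of this stretch in LIF-ESCs and 99.6% in Myc-ESCs, so that its absence from the LIF-ESC H3K27me3 list was not matched by an absence of Suz12. The H3K4me3 peak of Hoxa7 covered the start in both cultures, with a score of 591.71 in LIF-ESCs and 466.2 in Myc-ESCs.

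Hoxa9, a regulator of blood stem cells that is often high in leukaemia, had no H3K27me3 in its window in LIF-ESCs and 2231 bp in 9 peaks in Myc-ESCs. H3K4me3 covered 2327 bp and 1976 bp of the window. The H3K4me3 peak lay downstream of the start in both cultures, 174 bp away in LIF-ESCs and 525 bp away in Myc-ESCs, and 53.6% and 32.5% of the peaks in its list scored lower. Hoxa10, which acts in the uterus and the limb, has starts at 52234939 and 52240854, and its windows together span 10002 bp. H3K27me3 covered 593 bp and 3231 bp of them, and Suz12 69.9% and 99.7%. H3K4me3 covered 5132 bp in LIF-ESCs against 4912 bp in Myc-ESCs, but with windows of 1000 bp on each side it was higher in Myc-ESCs by 303 bp. The peak over the 52234939 start had a score of 450.91 and a length of 3623 bp in LIF-ESCs, against 100.1 and 2607 bp in Myc-ESCs. Hoxa11, which acts in the forearm and kidney, had H3K27me3 over 361 bp and 2754 bp, the largest share of a window in Myc-ESCs at 55.1%. Suz12 covered its whole window in both cultures. Its H3K4me3 peak covered 1948 bp and 2551 bp with scores of 106.82 and 98.77, so that a limit of 100 on the score left it in LIF-ESCs only.

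Along the cluster, the direction of the H3K4me3 difference was not the same everywhere, whereas both Polycomb marks covered more bases in Myc-ESCs in each segment. From Hoxa2 to Hoxa4, H3K4me3 covered 23.2% in LIF-ESCs and 38.9% in Myc-ESCs, from Hoxa5 to Hoxa7 31.8% and 47.8%, and from Hoxa9 to Hoxa11 40.5% and 35.6%. Outside these segments, beyond Hoxa11, a LIF-ESC H3K4me3 peak of 1227 bp with a score of 76.6 (chr6:52259228-52260454) had no counterpart in Myc-ESCs. Among the segments, the posterior segment, from Hoxa9 to Hoxa11, was the only one with less H3K4me3 in Myc-ESCs, and its genes did not all go this way. Peaks were shorter in Myc-ESCs at Hoxa9 (2722 and 2182 bp) and at the Hoxa10 start 52234939 (3623 and 2607 bp). They were longer at the other Hoxa10 start (1991 and 2305 bp) and at Hoxa11 (1948 and 2551 bp). H3K27me3 covered 4.22% and 32.5% of the first segment, 2.05% and 39.9% of the middle segment, and 5.72% and 42.3% of the posterior segment. Between Hoxa4 and Hoxa5, in 10050 bp, H3K27me3 had its lowest value in Myc-ESCs, 21.3% against 5.81% in LIF-ESCs, while Suz12 covered 29.5% in LIF-ESCs and 61.6% in Myc-ESCs, the largest ratio of the segments at 2.09. From Hoxa9 to Hoxa11, Suz12 covered 83.5% and 99.9%.

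Over all 10 start sites, H3K4me3 was highest in the 1000 bp just downstream of the start, at 76.8% of bases in LIF-ESCs and 74.6% in Myc-ESCs. H3K27me3 in Myc-ESCs had a low value in the same bin, 25.1%, with 45.7% in the bin that ends 1000 bp upstream and 49.5% between 2000 and 2999 bp downstream. It was lower still, 22.7%, between 4000 and 4999 bp downstream. Suz12 covered 96.1% of this bin in both cultures, and away from the start it was higher in Myc-ESCs, for example 73.5% in LIF-ESCs against 99.0% in Myc-ESCs between 2000 and 2999 bp downstream. Neighbouring genes share bases in these bins, since the Hoxa5 and Hoxa6 starts, among others, are close together. Over the whole region, 25.9% of Myc-ESC H3K27me3 bases lay in H3K4me3 peaks, which covered 28.2% of it, and 95.6% lay in Suz12 peaks.

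**Figure D4:**
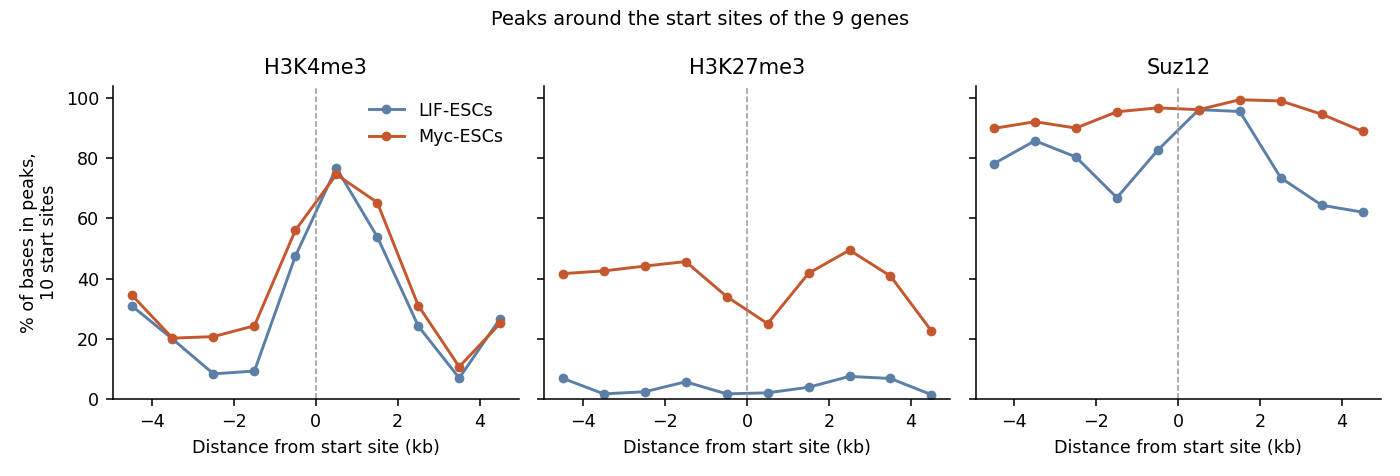
Percent of bases in peaks in bins of 1000 bp around the 10 start sites of the 9 genes, with positive distances (kb) downstream of the start, LIF-ESCs in blue and Myc-ESCs in orange. H3K4me3 was highest just downstream of the start in both cultures, where the Myc-ESC H3K27me3 value was 25.1%, and Suz12 stood at 96.1% there in both.

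The bases under the marks also differed in composition. The HoxA region as a whole had 2.65 CpG per 100 bp and a GC content of 48.9%. H3K4me3 peaks held 5.11 CpG per 100 bp in LIF-ESCs against 4.53 in Myc-ESCs, and Suz12 peaks 3.25 against 2.87. H3K27me3 peaks held 1.11 and 1.88, below the region, with a GC content of 41.2% and 45.5%. The bases with H3K27me3 in Myc-ESCs alone held 1.96, and those with Suz12 in Myc-ESCs alone held 1.57, against 1.24 for bases with no peak in any list. Over all peaks of the lists, H3K27me3 peaks held 1.61 and 1.39 CpG per 100 bp and Suz12 peaks 4.29 and 4.18, beside 0.826 for the genome. The H3K27me3 list was thus poorer in CpG than the Suz12 list both over HoxA and over the genome, and the part that base composition takes in the recovery of fragments was not tested.

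**Figure D5:**
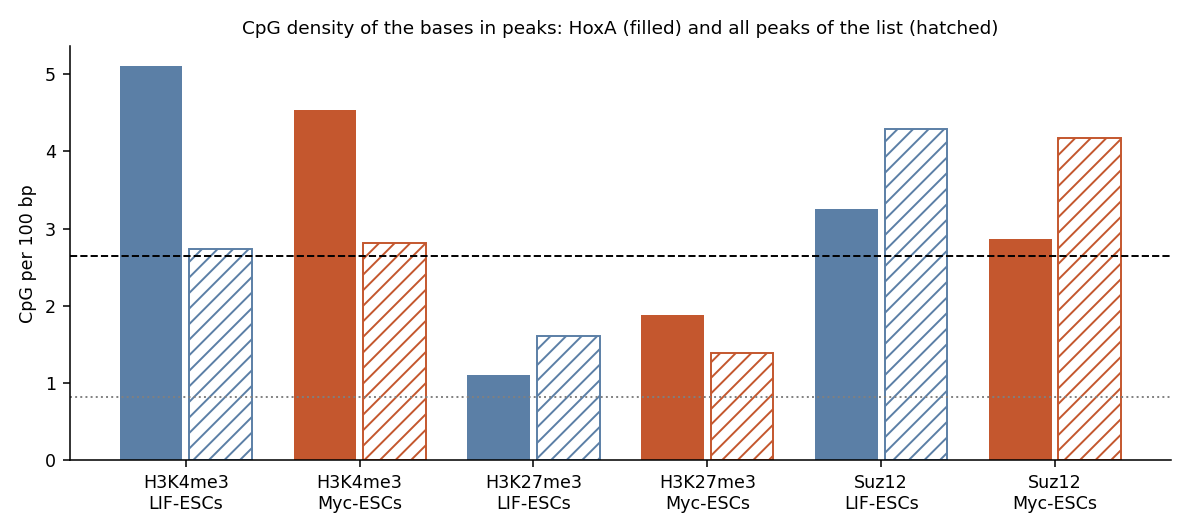
CpG dinucleotides per 100 bp of the bases in peaks, with filled bars for peaks over the HoxA cluster and hatched bars for all peaks of the list, blue for LIF-ESCs and orange for Myc-ESCs. The dashed line is the whole HoxA region (2.65) and the dotted line the genome (0.826); H3K27me3 bars over HoxA stood below the dashed line and H3K4me3 and Suz12 bars above it.

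Genes on either side of the cluster were taken as outer points. Skap2, an adaptor gene of immune cells on the Hoxa2 side, had H3K4me3 in both cultures and no Polycomb peak, with the nearest Suz12 peak 140164 bp away in LIF-ESCs and at 139276 bp in Myc-ESCs. Evx1, a homeobox gene on the Hoxa11 side, had all 3 marks in both cultures, with H3K27me3 over 444 bp and 914 bp of its window. Among known regulators and partners of Hox genes, H3K27me3 marked 1 of 3 Cdx genes in LIF-ESCs against 2 in Myc-ESCs, 1 against 3 of 5 retinoic acid genes, and 3 of 7 Pbx and Meis genes in both cultures. Of all genes, H3K27me3 marked 3.82% in LIF-ESCs and 10.7% in Myc-ESCs. Some of these calls were small, with 23 bp at Cdx4 in Myc-ESCs and 32 bp at Pbx3 in LIF-ESCs. Meis1, which encodes a DNA-binding partner of Hox proteins, had H3K27me3 over 553 bp and 1428 bp.

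The HoxB, HoxC and HoxD clusters, taken from their outermost genes with 10 kb on either side, were set beside HoxA. The ratio of H3K27me3 bases in Myc-ESCs to LIF-ESCs was 7.97 in HoxA, 5.54 in HoxB, 9.96 in HoxC and 6.89 in HoxD, and with lists of equal length it was 4.51, 2.08, 5.69 and 4.37. With a score of at least 100 it was 77.6, 9.31, 27.4 and 15.8, where HoxA rested on 1 LIF-ESC peak. The place of HoxA among the clusters therefore depended on the limit on the score. The H3K4me3 ratio was 1.17 in HoxA and 1.74, 1.29 and 1.49 in HoxB, HoxC and HoxD, and with a score of at least 100 it was 1.27 in both HoxA and HoxD. The longest Suz12 peak in Myc-ESCs was 31.0 kb in HoxA and 20.3, 10.5 and 19.9 kb in HoxB, HoxC and HoxD. With 1 list per culture none of these differences between clusters was tested.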

How the data were processed

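The authors aligned reads to GRCm38 with Bowtie2 2.2.3, kept reads mapped to 1 best place, and called enrichment over background with MACS 1.4.2 (versions from the submitters' processing notes). They deposited 6 lists of peaks with a position and a score per peak. Whether the 2 libraries of a group were pooled, and which inputs were used, is not given in the sources used here. One LIF-ESC input is labelled as chromatin without antibody, the other inputs as genomic DNA. Scores depend on depth, so that scores of the cultures stand side by side and their sizes are not comparable.

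Peaks were intersected with 45754 curated RefSeq transcripts of GRCm38.p6 in Python 3.11.15 with pandas 2.3.3, numpy 2.4.6 and pysam 0.24.0. Starts are 1-based. The interval code was tested on simulated peaks. All 9 members are named; other genes come from lists of flanking genes, regulators, partners, pluripotency and differentiation genes. The members and lists were chosen with earlier results of these data known. Other settings tried were lists of equal length (the highest-scoring peaks of the longer list), only scores of at least 100, peaks joined across 1000 or 5000 bp, other windows and start sites, a shorter region and an overlap of 50% of both peaks. Start sites from GENCODE M21 were added after the data were seen.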

Additional observations from a re-analysis of the deposited data

How the results depend on the processing

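Of 96 values of the main results under other settings, 68 stayed within 1.5 times, or within the 95% Wilson interval of a share, and 28 did not. With a score of at least 100, H3K27me3 in LIF-ESCs came to 0.255% of the region, 1 peak and 0 genes, H3K27me3 in Myc-ESCs to 19.8% and 58 peaks, Suz12 to 36 and 26 peaks in LIF-ESCs and Myc-ESCs, and the H3K27me3 ratio became 77.6. With lists of equal length, Myc-ESC H3K27me3 came to 19.0%, 54 peaks and 35.2% shared, and the ratio to 4.51. Joined across 1000 bp, H3K27me3 peaks formed 18 and 23 domains in LIF-ESCs and Myc-ESCs and Suz12 peaks 10 and 5; across 5000 bp there were 9 and 1 H3K27me3, 2 and 1 Suz12 and 6 and 5 H3K4me3 domains. With an overlap of 50% of both peaks, 20.0% and 3.7% of H3K27me3 peaks and 16.7% and 22.9% of Suz12 peaks were shared. LIF-ESC H3K27me3 marked 2 genes with 1000 bp on each side of the start and 8 with 5000 bp. For single genes the direction turned in 3 of 135 values. H3K4me3 at Hoxa10 was higher in Myc-ESCs by 303 bp with 1000 bp on each side and by 314 bp with 1 start site, and at Hoxa11 it fell by 1948 bp with a score of at least 100, since its Myc-ESC peak scored 98.77. The more numerous H3K27me3 peaks of Myc-ESCs over HoxA held under each of these settings except joining across 5000 bp, where 1 domain took the place of many. GENCODE M21 start sites, added after the data were seen, left all 6 counts of marked genes within 1.5 times. With them, H3K27me3 marked 7 of the 9 genes in LIF-ESCs instead of 5, against 9 in Myc-ESCs. Leaving out a replicate was not run, and no paired analysis was possible because no list exists per library. The depth of the libraries is unknown and limits what a missing peak can show.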

Other observations

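Several noncoding RNA genes lie between Hoxa2 and Hoxa11, and they were looked at after the files had been seen. All 8 of them (Hoxaas2, Gm15050, LOC115490409, 5730596B20Rik, Hoxaas3, Mira, Mir196b and Hoxa11os) had Suz12 at the start in both cultures, beside 12.1% and 14.6% of all genes. H3K27me3 covered more bases in Myc-ESCs at each, from between 0 and 567 bp in LIF-ESCs to between 1884 and 2972 bp in Myc-ESCs. Their windows share bases with those of the coding genes and of each other, so that these are not separate measurements.

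Mir196b, between Hoxa9 and Hoxa10, makes a microRNA known to target Hox messenger RNAs. It was the only one of the 8 with less H3K4me3 in Myc-ESCs, 709 bp in LIF-ESCs against 0 bp. Its H3K27me3 extent was the largest of the 8 in Myc-ESCs, at 2972 bp. In LIF-ESCs it had 487 bp of H3K27me3, and 5730596B20Rik had the most, 567 bp. The H3K4me3 at its window came from the downstream end of the Hoxa10 peak, which was shorter in Myc-ESCs. Its 5p arm, as RefSeq gives it at chr6:52230129-52230150 on the minus strand of GRCm38.p6, is shown with the seed, bases 2 to 8, in capitals.
mmu-miR-196b-5p: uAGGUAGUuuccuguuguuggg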
